A study of Mus musculus with 23 samples.

Results

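The heart libraries of acetate-supplemented mice were compared with those of mice on the control diet, as 3 acetate and 4 control libraries out of 23 libraries from heart and spleen. All 41388 windows of the heart table were used. Both groups were left ventricle of male C57Bl/6 mice housed singly. The acetate mice drank water with 100 mM magnesium acetate. The control mice ate a chow without resistant starch. A further group of 4 heart libraries, from mice on a high fibre chow rich in resistant starch, and 12 spleen libraries of the same 3 regimes are used where they bear on the comparison. Each regime began 3 weeks ahead of minipump surgery and ran until the study ended. The labels give neither the content of the pump, nor the age of the mice, nor the food that the acetate mice ate. Whether each library came from its own mouse is not stated either. The spread that the tests use is that among the sequenced libraries, and it may be technical. The comparison asks whether captured methylated DNA at gene starts of the heart differs with acetate.

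DNA methylation in mammals is found mostly at CpG, a cytosine followed by a guanine. Methylated CpG-rich promoters tend to be silent, while promoters of genes in use are mostly free of the mark. Acetate is a short-chain fatty acid that gut bacteria make from fibre. It signals through the receptors Ffar2 and Ffar3 and is turned into acetyl-CoA, the donor for histone acetylation. In the assay, a methyl-CpG binding protein on beads pulled methylated fragments out of sheared genomic DNA, and the captured DNA was sequenced. The deposited values are read counts per 3 kb window at transcription start sites. More reads in a window mean more captured DNA at that gene start. No unenriched input library was analysed here, so a count gives no absolute methylation level, and DNA copy number and capture efficiency also enter it.

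The windows with the smallest p in either direction differed in the density of CpG that the capture reads. Shown here are the bases just upstream of the annotated RefSeq start (build GRCm38.p6), 5′ to 3′ on the gene's strand with each CpG in capitals, for the first 3 windows per direction whose start was not inside another transcript of the gene.
Itgb8: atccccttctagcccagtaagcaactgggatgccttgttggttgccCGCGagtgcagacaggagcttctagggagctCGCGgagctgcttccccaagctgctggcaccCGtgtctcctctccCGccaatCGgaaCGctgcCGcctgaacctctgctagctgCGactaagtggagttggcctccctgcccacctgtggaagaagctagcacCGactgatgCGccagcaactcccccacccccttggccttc
Olfr958: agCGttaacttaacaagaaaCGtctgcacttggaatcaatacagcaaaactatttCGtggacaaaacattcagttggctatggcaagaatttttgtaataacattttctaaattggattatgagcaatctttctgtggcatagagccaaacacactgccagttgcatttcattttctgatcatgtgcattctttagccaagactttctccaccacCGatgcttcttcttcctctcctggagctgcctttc
Lin7c: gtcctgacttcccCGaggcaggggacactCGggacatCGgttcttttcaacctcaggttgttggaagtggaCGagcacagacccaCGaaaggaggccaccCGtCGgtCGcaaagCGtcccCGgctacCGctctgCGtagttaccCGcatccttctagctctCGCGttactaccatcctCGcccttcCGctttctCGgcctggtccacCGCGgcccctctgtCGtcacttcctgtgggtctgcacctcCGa
Tbc1d2b: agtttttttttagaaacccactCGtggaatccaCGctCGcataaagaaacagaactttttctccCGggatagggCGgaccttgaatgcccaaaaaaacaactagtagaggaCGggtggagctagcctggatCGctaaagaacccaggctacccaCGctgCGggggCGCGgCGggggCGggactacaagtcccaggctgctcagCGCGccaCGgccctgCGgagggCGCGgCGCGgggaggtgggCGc
Eif3l: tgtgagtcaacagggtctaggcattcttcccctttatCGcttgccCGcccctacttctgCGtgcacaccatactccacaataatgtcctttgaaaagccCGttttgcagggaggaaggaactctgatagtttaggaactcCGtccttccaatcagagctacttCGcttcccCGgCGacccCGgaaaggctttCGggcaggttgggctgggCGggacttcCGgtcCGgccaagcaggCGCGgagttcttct
Bpifb2: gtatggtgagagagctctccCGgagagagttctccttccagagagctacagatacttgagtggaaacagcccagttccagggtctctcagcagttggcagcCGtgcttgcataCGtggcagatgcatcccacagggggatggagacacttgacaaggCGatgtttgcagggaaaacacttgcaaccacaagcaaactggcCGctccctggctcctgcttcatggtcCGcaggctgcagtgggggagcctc
Itgb8 (chr12:119238277-119238526, minus strand) holds 12 CpG, Olfr958 (chr9:39550870-39551119, minus strand) 4 and Lin7c (chr2:109890628-109890877, plus strand) 22. Tbc1d2b (chr9:90270773-90271019, minus strand) holds 22 CpG in 247 bases, Eif3l (chr15:79074973-79075222, plus strand) 15 and Bpifb2 (chr2:153874795-153875044, plus strand) 6. Over all promoters of the RefSeq table the median was 6 CpG in 250 bases, with quartiles of 2 and 16. Olfr958 lay below that median, Bpifb2 at it and the other 4 above it. That table also holds promoters outside the tested windows. Over the tested protein-coding windows with a promoter sequence, the median was 14 CpG in 300 bases (250 before and 50 after the start). Among the 12 windows per direction with the smallest p, 10 higher and 9 lower had such a sequence. Their medians were 10.5 and 7 CpG.

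Library totals were 4.63, 5.90 and 5.36 M (mega) counts on acetate, and 8.60, 6.62, 6.69 and 5.98 M on control. The window of Gm10800, a predicted gene, took 42.4%, 37.0% and 22.1% of the counts on acetate, and 43.1%, 36.8%, 50.05% and 39.1% on control. Acetate replicate 1 stood apart. Its median count per window was 26, against 38 to 58 in the other 6 libraries, and 17.1% of windows had no read, against 11.9% to 13.5%. Its score on the first principal component, which held 65.02% of the variance of log2 CPM (read counts scaled to library size) over the 11 heart libraries, was 136, against -19.12 and -18.4 in acetate replicates 2 and 3 and 9.83 to 68.6 in the control libraries. Its correlation with acetate replicates 2 and 3 over windows was 0.917 and 0.918, while those 2 correlated with each other at 0.967. With the 4 control libraries acetate replicate 1 correlated at 0.937 to 0.965, closer than with its own group. Acetate replicates 2 and 3 correlated with the control libraries at 0.948 to 0.967. The library total was 5.29 ± 0.639 M on acetate (SD, n = 3) and 6.97 ± 1.13 M on control (n = 4), without overlap. Its p was 0.0571 by an exact two-sided permutation test, the smallest that 35 splits can give, and 0.343 adjusted over 6 measures of library composition, so no measure could pass at 0.05. Results are therefore given with and without acetate replicate 1.

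**Figure D1:**
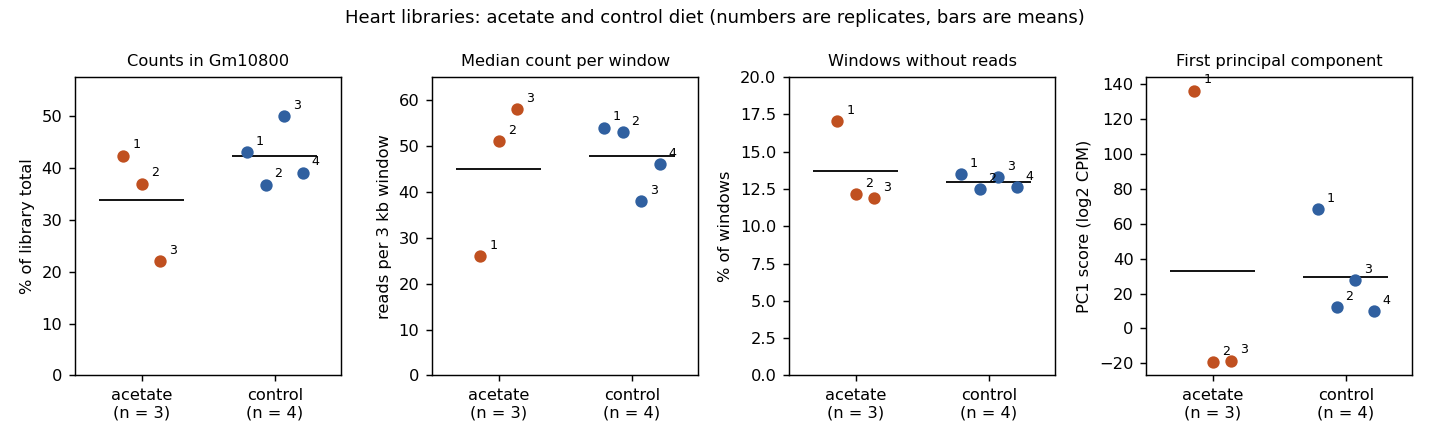
Composition of the heart libraries on acetate (left) and control (right). Points are libraries with their replicate number and bars are group means; the panels show the percent of counts in Gm10800, the median reads per 3 kb window, the percent of windows without reads and the score on the first principal component. Acetate replicate 1 has the lowest median count (26), the most windows without reads (17.1%) and the highest score (136).

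A second feature of the labels bears on every comparison. The libraries are numbered in their titles, and the acetate hearts carry the numbers 11, 12 and 17 while the control hearts carry 1, 2, 3 and 4. Number and diet therefore cannot be told apart from these 7 libraries alone. A single high fibre heart library (replicate 4, number 16) lies in the upper range and the other 3 high fibre libraries (6, 7 and 8) in the lower one. The spleen libraries use the same numbers in the same way. Whether a number stands for 1 mouse, or for a cage, a cohort or a batch, is not stated.

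As a check of the tissue, heart was set against spleen over the control and acetate libraries of both. Captured DNA at gene starts of the cardiac sarcomere, the contractile apparatus of heart muscle, was lower in heart for 21 of 32 genes and higher for 5, with a median log2 difference of -0.75. Over all windows 35.1% were called lower in heart and 45.1% higher. Germline genes went the same way and further, with 33 of 40 lower in heart, 5 higher and a median of -1.18. The lower level in heart was therefore not particular to genes of heart muscle. Myh6, the main myosin heavy chain of the adult mouse heart, had a log2 difference of -1.56, and cardiac troponin I (Tnni3) had -1.45 (edgeR adjusted p = 5.87e-13 and 1.78e-12). Genes of lymphocytes were higher in heart for 19 of 28. Captured DNA gives no cell shares, so fewer cells of a type and a different level per cell cannot be told apart.

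On acetate, no window in heart passed the test. By edgeR's quasi-likelihood test with Benjamini-Hochberg adjustment at 5%, 0 of 33562 tested windows (0%) differed between acetate and control, and the smallest adjusted p was 1.00. At an unadjusted p under 0.05 there were 840 windows (2.50%), of which 499 (1.49%) were higher and 341 (1.02%) lower on acetate. DESeq2 and limma voom also called 0 windows, with 581 and 889 at an unadjusted p under 0.05. In 1038 windows (3.09%) the acetate and control libraries did not overlap, 501 (1.49%) of them higher and 537 (1.60%) lower on acetate.

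The size of any difference was bounded for most windows. The median log2 fold change was 0.02, and the 5th and 95th percentiles were -0.30 and 0.47. The median standard error was 0.18 and the median distance from the estimate to the bound of its 95% interval was 0.38. In 19188 windows (57.2%) the 95% interval lay within a 1.5-fold change in both directions, and in 28060 (83.6%) within a 2-fold change. When known changes were planted in counts simulated at the sizes of these libraries, 74% of the 2-fold changes and 21.2% of the 1.5-fold changes were called. A further 8 windows without a planted change were called. The counts were drawn independently around a shared mean per window, so no library stood apart and no trend with abundance was built in. These shares may therefore not hold for the real libraries.

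The windows nearest to a call on the higher side were of several kinds. Irx2 (ENSMUSG00000001504; chromosome 13, 72624430 to 72634196), an Iroquois homeobox transcription factor, had 11.3, 9.40 and 12.8 CPM in the acetate libraries, against 5.18, 6.12, 5.78 and 8.21 CPM in the control libraries. All 3 acetate libraries lay above all 4 control libraries, acetate replicate 1 included. The log2 fold change was 0.83 (SE 0.20, 95% interval 0.42 to 1.25, edgeR adjusted p = 1.00). The start of Gm20554 lies within 3 kb of that of Irx2, so their windows may share reads. Itgb8 (ENSMUSG00000025321; chromosome 12, 119162803 to 119238276) encodes an integrin chain that helps release active TGF-beta. It had 5.96, 10.1 and 12.4 CPM on acetate, against 4.41, 5.78, 5.56 and 5.73 CPM on control. Again the groups did not overlap, but acetate replicate 1 lay just above the control libraries (log2 fold change 0.88, SE 0.23).

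Lin7c (ENSMUSG00000027162; chromosome 2, 109890878 to 109900937), a scaffold protein of cell polarity and synapses, had 4.77, 12.8 and 12.1 CPM on acetate, against 4.72, 5.12, 5.56 and 5.73 CPM on control. Here acetate replicate 1 lay within the control range and the other 2 acetate libraries lay well above it (log2 fold change 0.98, SE 0.27, edgeR adjusted p = 1.00). Sik2, a salt-inducible kinase, showed the same order, with 5.96, 9.95 and 9.43 CPM on acetate, against 3.81, 3.14, 6.00 and 5.92 CPM on control. Its log2 fold change was 0.91 (SE 0.26). Slc16a12, of the monocarboxylate transporter family, had 10.7, 9.40 and 12.5 CPM on acetate, against 5.94, 4.30, 8.0 and 8.40 CPM on control (log2 fold change 0.74, SE 0.22), without overlap. Gng11, a G protein gamma subunit, also had no overlap, at 10.1, 10.8 and 12.4 CPM on acetate, against 5.94, 8.59, 8.22 and 6.11 CPM on control. Of the other 6 leading windows on that side, 5 belong to chemosensory receptors or their pseudogenes: Olfr958, Olfr539, Olfr742, Vmn2r48 and Vmn1r-ps128. Olfr958 had 15.8, 16.3 and 17.2 CPM on acetate, against 12.8, 11.4, 12 and 8.79 CPM on control. Vmn2r48 had 0.596, 4.52 and 3.71 CPM on acetate, against 0.761, 1.16, 0.889 and 1.146 CPM on control, with acetate replicate 1 the lowest of all 7 libraries. High fibre heart against the same control libraries was higher too, with log2 fold changes of 1.08 (Sik2), 0.65 (Slc16a12) and 0.70 (Gng11). There Olfr958 had 0.45, Olfr539 0.84, Olfr742 1.32, Vmn2r48 1.51 and Vmn1r-ps128 1.37. Their edgeR adjusted p-values were 0.00644 (Sik2) to 0.0231 (Vmn2r48). Msl3l2, the remaining leading window, had 0.61 on acetate and 0.39 on high fibre (adjusted p = 0.0618). These differences were thus not particular to acetate.

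On the lower side the first window was that of Tbc1d2b (ENSMUSG00000037410; chromosome 9, 90202047 to 90270772), which encodes a regulator of Rab GTPases in membrane traffic. It had 58.4, 39.96 and 47.0 CPM on acetate, against 62.4, 78.8, 86.9 and 83.5 CPM on control. The groups did not overlap, with acetate replicate 1 nearest to the control libraries (log2 fold change -0.69, SE 0.18, edgeR adjusted p = 1.00). Eif3l (ENSMUSG00000033047; chromosome 15, 79075223 to 79094400), a subunit of translation initiation factor 3, had 19.07, 17.2 and 14.7 CPM on acetate, against 26.3, 23.6, 19.8 and 24.4 CPM on control. Its groups did not overlap either, though acetate replicate 1 and control replicate 3 were close (log2 fold change -0.50, SE 0.14).

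Among genes with a known part in heart muscle, Esrra and Tnni3 were on this side. Esrra (ENSMUSG00000024955; chromosome 19, 6910977 to 6922048) encodes the nuclear receptor ERR-alpha, which drives genes of mitochondrial energy supply. It had 1.49, 1.81 and 1.24 CPM on acetate, against 3.50, 3.97, 3.11 and 3.82 CPM on control. All acetate libraries lay below all control libraries at a low level (log2 fold change -1.25, 95% interval -2.08 to -0.43, edgeR adjusted p = 1.00). Tnni3 (ENSMUSG00000035458; chromosome 7, 4518305 to 4522718), cardiac troponin I of the thin filament, had 15.5, 11.2 and 9.74 CPM on acetate, against 19.3, 13.4, 19.3 and 15.9 CPM on control. Its groups overlapped, since acetate replicate 1 lay above control replicate 2 (log2 fold change -0.53, SE 0.17). Gal, the neuropeptide galanin, had 9.24, 11.6 and 9.43 CPM on acetate, against 14.2, 12.1, 18.2 and 15.7 CPM on control (log2 fold change -0.55). F2, which encodes prothrombin, had 17.6, 16.5 and 19.9 CPM on acetate, against 25.4, 24.3, 24.4 and 21.4 CPM on control (log2 fold change -0.40). Neither Gal nor F2 overlapped between the groups. In high fibre heart against the same control libraries Tnni3 had -0.60 (edgeR adjusted p = 0.0116) and F2 -0.58 (adjusted p = 0.00548). Gal had -0.33 (adjusted p = 0.0988) and Esrra 0.08 (adjusted p = 0.865) there. The remaining leading windows were those of Omt2a, Lrrn4cl, Bpifb2, the long noncoding RNA U90926, the beta-catenin cofactor Bcl9l and Ccdc154, with log2 fold changes of -0.64 to -0.45 and adjusted p-values of 1.00.

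**Figure D2:**
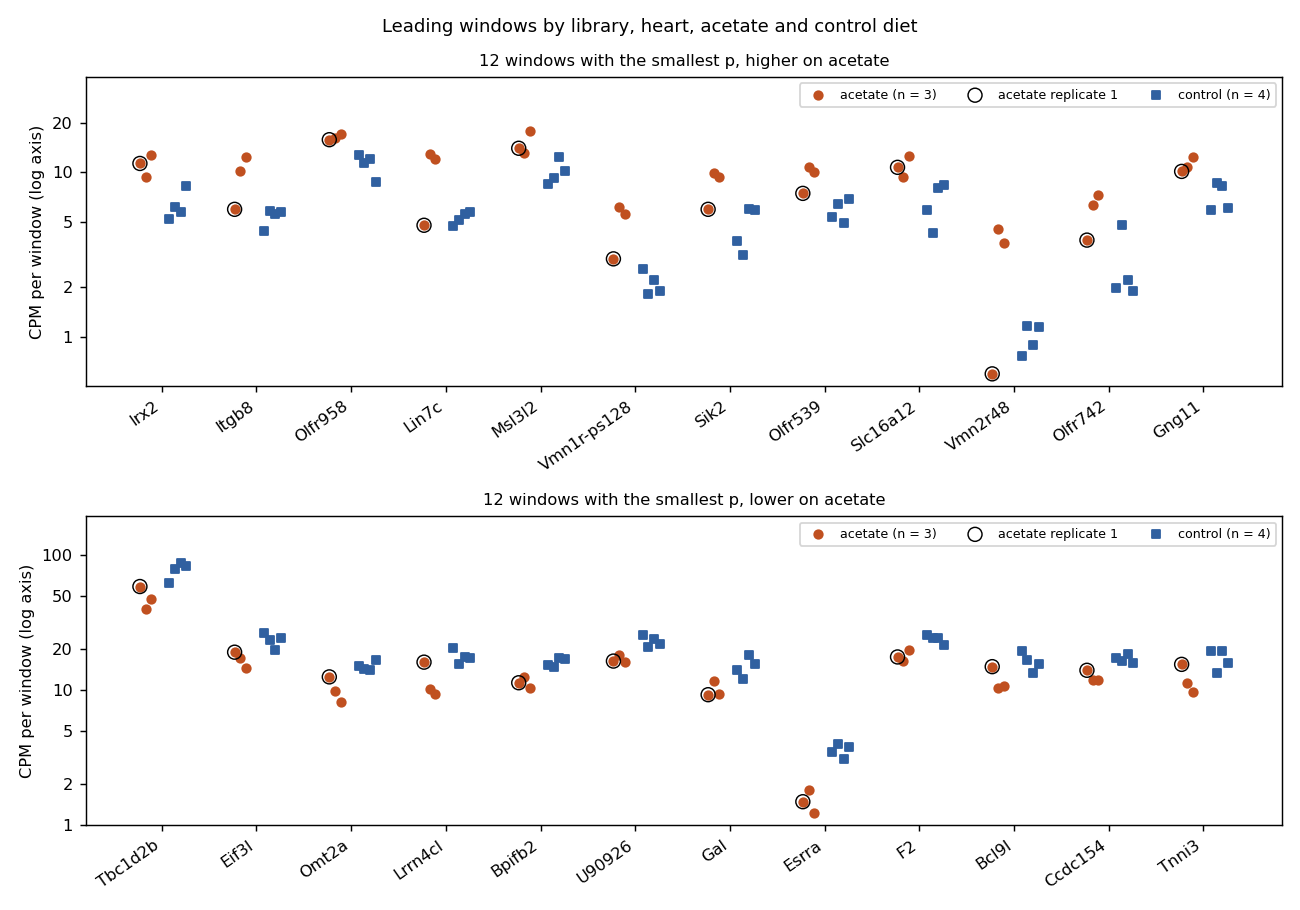
Normalised counts (CPM, log axis) in each heart library for the 12 higher (top) and 12 lower (bottom) windows with the smallest p. Acetate libraries are circles on the left of each gene, with replicate 1 ringed, and control libraries are squares on the right. Replicate 1 lies with the control libraries at Lin7c (4.77 CPM) and apart from them at Irx2 (11.3 CPM).

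The Tbc1d2b region held several windows with small p-values. The windows of 2 small predicted pseudogenes on the same chromosome, Gm22717 (90315910 to 90316080) and Gm22866 (90351995 to 90352171), were examined because of their nearness, after their values were seen. Gm22866 had the smallest p of all windows, at 14.9, 13.9 and 11.1 CPM on acetate, against 25.4, 31.6, 31.8 and 31.3 CPM on control (log2 fold change -1.19, SE 0.24, edgeR adjusted p = 1.00). Gm22717 had 8.05, 14.5 and 8.35 CPM on acetate, against 14.0, 18.8, 20.2 and 20.2 CPM on control (log2 fold change -0.80). At Gm22866 all acetate libraries lay below the lowest control library, with a gap wider than the spread within either group.

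The same region separated the libraries by title number as well as by diet. In high fibre heart, library 4 with the number 16 had 10.9 CPM at Gm22866, while libraries 1 to 3 had 26.4, 30.1 and 29.7 CPM. At Tbc1d2b that library had 40.2 CPM and the other 3 had 74.8, 76.8 and 76.9 CPM. The high fibre library with the upper number thus lay with the acetate libraries and not with its own diet group. Spleen gave the same order at Tbc1d2b. The 4 acetate spleens had 16.4, 18.96, 23.2 and 25.6 CPM and the high fibre spleen numbered 16 had 22.2 CPM. The high fibre spleens 1 to 3 had 47.4, 51.0 and 37.8 CPM, and the 4 control spleens had 42.3, 39.9, 46.1 and 42.0 CPM. With the number range as a term in the model, which rests on that 1 high fibre library, the log2 fold change of Tbc1d2b on acetate in heart was 0.23 (SE 0.25) and that of Gm22866 was 0.21 (SE 0.27). At these windows the part of acetate and the part of whatever the number stands for cannot be told apart.

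Among the other leading windows, some held their value with that term and others moved towards 0. Irx2 had a log2 fold change of 0.83 (SE 0.35) with that term, Olfr958 had 0.55 (SE 0.26) and Gal had -0.70 (SE 0.30), all with an edgeR adjusted p of 1.00. Lrrn4cl moved to -0.24 (SE 0.34) with the term, against -0.64 without it, and Omt2a to -0.28 (SE 0.30), against -0.61. In both, high fibre library 4 lay below the other high fibre hearts, at 8.03 CPM against 8.92 to 11.99 CPM for Lrrn4cl and at 10.2 CPM against 11.4 to 14.6 CPM for Omt2a. The 4 high fibre hearts, set against the same control libraries, had 10.01, 10.3, 10.99 and 10.5 CPM at Irx2, within the range of the acetate libraries and above all 4 control libraries. Lin7c had 0.57 (SE 0.44) and Esrra -0.72 (SE 0.65). In 17 of 24 leading windows high fibre library 4 differed from libraries 1 to 3 on the same side as acetate did from control. This was so for 56.0% of all windows, and for 543 of the 840 (64.6%) with an unadjusted p under 0.05. Irx2 had a log2 fold change of 0.79 in spleen, at low levels of 2.60, 2.65, 2.13 and 1.22 CPM on acetate, against 1.805, 1.77, 0.662 and 0.594 CPM on control.

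Genes that sense, carry and use acetate showed no difference that passed the test. Of 9 tested receptor windows for acetate and related acids, 0 had an unadjusted p under 0.05. Ffar2 (ENSMUSG00000051314; chromosome 7, 30818031 to 30823775), the main acetate receptor of immune cells, had 52.5, 37.3 and 36.8 CPM on acetate, against 44.3, 38.5, 41.3 and 34.4 CPM on control. The groups overlapped, although acetate replicate 1 was the highest of all 7 libraries. The log2 fold change was 0.07 (95% interval -0.22 to 0.36), so a 1.5-fold change lay outside the interval. Ffar3, its neighbour on the chromosome, had 35.2, 22.97 and 19.8 CPM on acetate, against 29.7, 26.9, 29.6 and 20.1 CPM on control (log2 fold change -0.08, 95% interval -0.43 to 0.28). Its value without acetate replicate 1 was -0.32 (95% interval -0.61 to -0.04, edgeR adjusted p = 0.200). Hcar1, the lactate receptor, and Hcar2, a receptor for niacin and ketone bodies, had log2 fold changes of 0.11 and -0.06. Olfr78, an olfactory receptor also found in blood vessels and known to respond to acetate, had 1.19, 4.52 and 5.56 CPM on acetate, against 4.11, 6.12, 5.56 and 4.01 CPM on control. The low counts of Olfr78 left a wide interval, -0.97 to 0.41.

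Of 29 windows of acetate transport and use, 0 were higher and 1 was lower on acetate at an unadjusted p under 0.05 (3.45%, beside 2.50% of all windows). That window was Acot8, a peroxisomal thioesterase that frees acids from CoA, at 22.9, 18.1 and 15.8 CPM on acetate, against 20.4, 22.5, 23.6 and 25.4 CPM on control (log2 fold change -0.30, edgeR adjusted p = 1.00). Acss2 (ENSMUSG00000027605; chromosome 2, 155518043 to 155562743), the acetyl-CoA synthetase of cytosol and nucleus, had 9.54, 11.2 and 13.3 CPM on acetate, against 11.9, 11.6, 11.1 and 12.8 CPM on control. Its log2 fold change was -0.03 (95% interval -0.37 to 0.30). Acss1, the mitochondrial synthetase by which heart muscle burns acetate, had 11.9, 12.7 and 13.6 CPM on acetate, against 15.2, 13.6, 13.1 and 11.7 CPM on control (log2 fold change -0.07, 95% interval -0.38 to 0.25). Acly, which makes acetyl-CoA from citrate, had -0.05, and the monocarboxylate transporters Slc16a1 and Slc16a3 had 0.02 and -0.02. In each of these 5 genes the groups overlapped. The interval of Slc16a1, -0.52 to 0.57, was the widest of them, at 3.28 to 8.96 CPM on acetate. In the fit without acetate replicate 1, Slc16a3 had -0.30 (95% interval -0.53 to -0.08, edgeR adjusted p = 0.122), Acly -0.22 (95% interval -0.41 to -0.03, adjusted p = 0.176) and Slc16a1 0.27.

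The enzymes that write and erase DNA methylation were also without a difference that passed the test. Of 25 such windows 0 had an unadjusted p under 0.05, with a median log2 fold change of 0.03 beside 0.02 over all windows (-0.04 beside 0.01 without acetate replicate 1). Dnmt1, the maintenance methyltransferase, had 44.1, 36.5 and 30.3 CPM on acetate, against 33.9, 36.2, 36.7 and 39.7 CPM on control. Its acetate libraries spread around the control libraries on both sides (95% interval -0.30 to 0.30). Dnmt3a, a de novo methyltransferase, had 203, 158 and 136 CPM on acetate, against 175, 155, 164 and 159 CPM on control (log2 fold change 0.02, 95% interval -0.24 to 0.27). Tet1 and Tet3, which oxidise methylcytosine, had -0.05 and -0.13, and Tet2, at 2.38 to 3.62 CPM on acetate, had -0.08 with an interval of -0.85 to 0.69. Mbd4, a glycosylase that repairs mismatches at methylated CpG, had the smallest p of the list, with 10.1, 14.8 and 12.7 CPM on acetate, against 8.83, 9.42, 11.8 and 9.93 CPM on control.

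One-carbon metabolism, which supplies the methyl group, had 1 of 22 windows at an unadjusted p under 0.05, lower on acetate (4.55%, beside 2.50% of all windows). Folr1, a folate receptor, had 33.7, 30.9 and 27.2 CPM on acetate, against 36.5, 37.8, 39.1 and 41.8 CPM on control. Every acetate library lay below every control library (log2 fold change -0.35, 95% interval -0.61 to -0.10, edgeR adjusted p = 1.00). Bhmt, which remethylates homocysteine with betaine, had -0.24. Of 17 histone acetyltransferases and 23 histone deacetylases and sirtuins, 0 had an unadjusted p under 0.05. Ep300 had 28.6, 32.9 and 25.5 CPM on acetate, against 22.4, 27.3, 30.2 and 23.7 CPM on control, and Hdac4 had a log2 fold change of 0.06 (95% interval -0.17 to 0.29).

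Of 28 genes of natriuretic peptides and cardiac stress, 1 was higher and 0 were lower at an unadjusted p under 0.05 (3.57%, beside 2.50% of all windows). Nppa, the atrial natriuretic peptide gene that is switched on again in a strained ventricle, had 11.9, 9.77 and 12.5 CPM on acetate, against 14.8, 12.2, 14.2 and 12.4 CPM on control. Its highest acetate library exceeded 2 of the control libraries by a narrow margin (log2 fold change -0.24, 95% interval -0.56 to 0.09, edgeR adjusted p = 1.00). Nppb, the brain natriuretic peptide gene, had -0.19, Myh6 0.11 and Myh7, the myosin of the fetal and stressed ventricle, -0.07. Egr1, an immediate-early transcription factor, had 32.2, 25.0 and 21.5 CPM on acetate, against 24.2, 18.8, 23.8 and 27.5 CPM on control (log2 fold change 0.13, 95% interval -0.19 to 0.44). Tgfb1, Ren1 and Agtr1a, genes of fibrosis and of the renin-angiotensin system, had -0.11, 0.02 and -0.08. Without acetate replicate 1, Myh7 had -0.32 and Tgfb1 -0.35, with 95% intervals below 0 and edgeR adjusted p-values of 0.119 and 0.1247. With library totals in place of scaling factors, which moved the median of all windows to 0.27, Nppa and Nppb turned to 0.03 and 0.07.

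**Figure D3:**
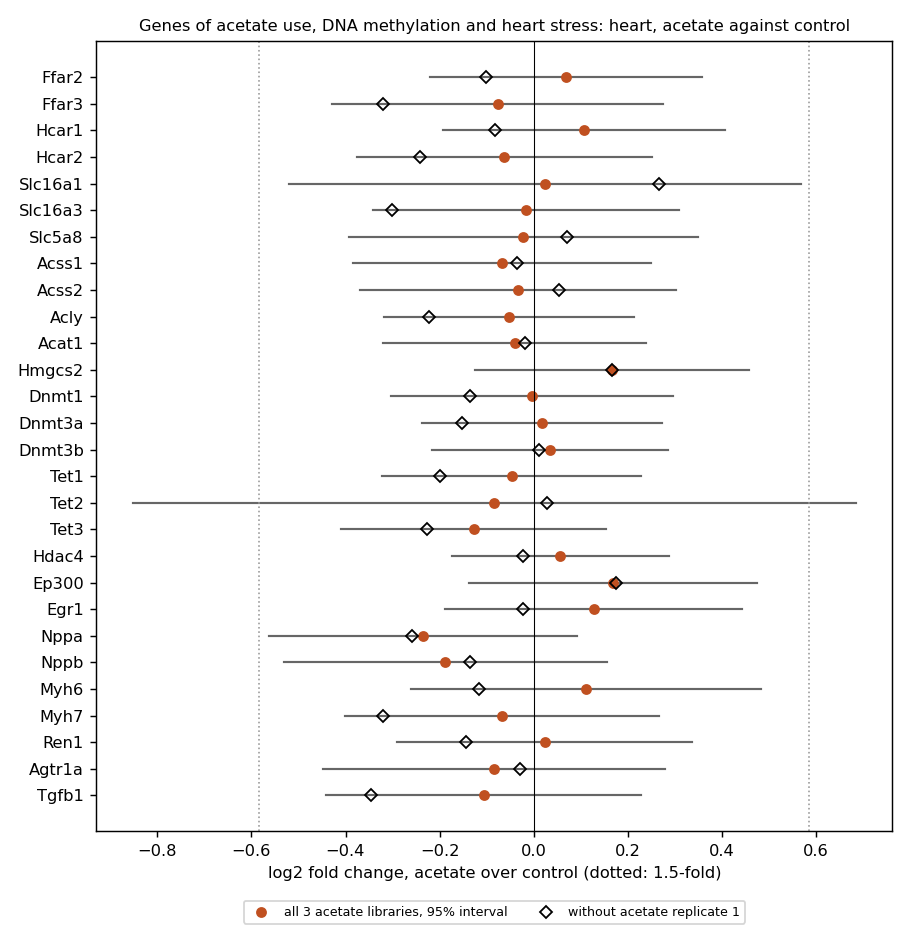
Log2 fold change of acetate over control in heart for 28 genes of acetate sensing and use, DNA methylation, chromatin and heart stress. Filled circles are estimates from all 3 acetate libraries with 95% intervals, open diamonds the estimates without acetate replicate 1, and dotted lines mark 1.5-fold. Every interval from all 3 acetate libraries includes 0, and that of Tet2 alone passes both dotted lines (-0.85 to 0.69).

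In 24 gene lists with 605 tested windows, 0 members passed the test. The cardiac transcription factors had the largest share at an unadjusted p under 0.05, with 5 higher and 0 lower of 27, beside 1.49% and 1.02% of all windows. Their median log2 fold change was 0.16, and 21 of 27 values were above 0, beside 0.02 and 18327 of 33562 over all windows. The median of the list was 0.09 without acetate replicate 1. Besides Irx2, those 5 were Isl1, Mef2c, Tbx18 and Irx1, of which the last 3 are named after their values were seen. Isl1, which marks progenitors of the second heart field, had 6.26, 13.6 and 12.2 CPM on acetate, against 7.002, 5.95, 7.33 and 8.21 CPM on control, with acetate replicate 1 inside the control range (log2 fold change 0.65). Mef2c, a muscle transcription factor, averaged 20.5 CPM on acetate and 15.7 CPM on control. The median of that list was 0.21 for acetate against control in spleen, over the 19 windows tested there, with 0 at an unadjusted p under 0.05. For high fibre heart against the same control libraries the median of that list was 0.24, so the shift was not particular to acetate. It was 0.10 for high fibre heart library 4 over libraries 1 to 3. The part of library composition in it was not tested.

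Lists of markers of the ventricle's cell types had medians of -0.09 to 0.07, beside a median of 0.02 over all windows, with smooth muscle and pericytes the lowest. Quartiles over all windows were -0.10 and 0.15, but these are of single windows, and a list median varies less. Cardiac sarcomere genes had 0 higher and 1 lower of 32 at an unadjusted p under 0.05 (3.1%, beside 2.50% of all windows), with a median log2 fold change of -0.04. Their median was -0.21 without acetate replicate 1, beside 0.01 over all windows. The 15 smooth muscle and pericyte genes had 13 values below 0 and a median of -0.09 (-0.14 without acetate replicate 1), with 0 at an unadjusted p under 0.05. Over all windows 15235 of 33562 values were below 0. Acta2, smooth muscle actin, had 8.94, 12.1 and 15.8 CPM on acetate, against 13.7, 16.4, 14.9 and 14.3 CPM on control. Library totals turned the Acta2 value of -0.22 to 0.05. The medians were 0.06 for 15 fibroblast genes, 0.07 for 20 endothelial genes, -0.02 for 25 myeloid genes, -0.07 for 28 lymphocyte genes and 0.02 for 18 erythroid and platelet genes, and without acetate replicate 1 these 5 lists had medians of -0.10 to 0.06. Vim, the intermediate filament vimentin of fibroblasts and other mesenchymal cells, had 13.7, 14.8 and 14.7 CPM on acetate, against 8.52, 10.7, 12.9 and 13.4 CPM on control. These groups did not overlap, by a narrow margin (log2 fold change 0.37, edgeR adjusted p = 1.00). Klf1, an erythroid transcription factor, had 20.6, 13.6 and 14.4 CPM on acetate, against 18.3, 18.3, 22.9 and 25.2 CPM on control (log2 fold change -0.42).

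**Figure D4:**
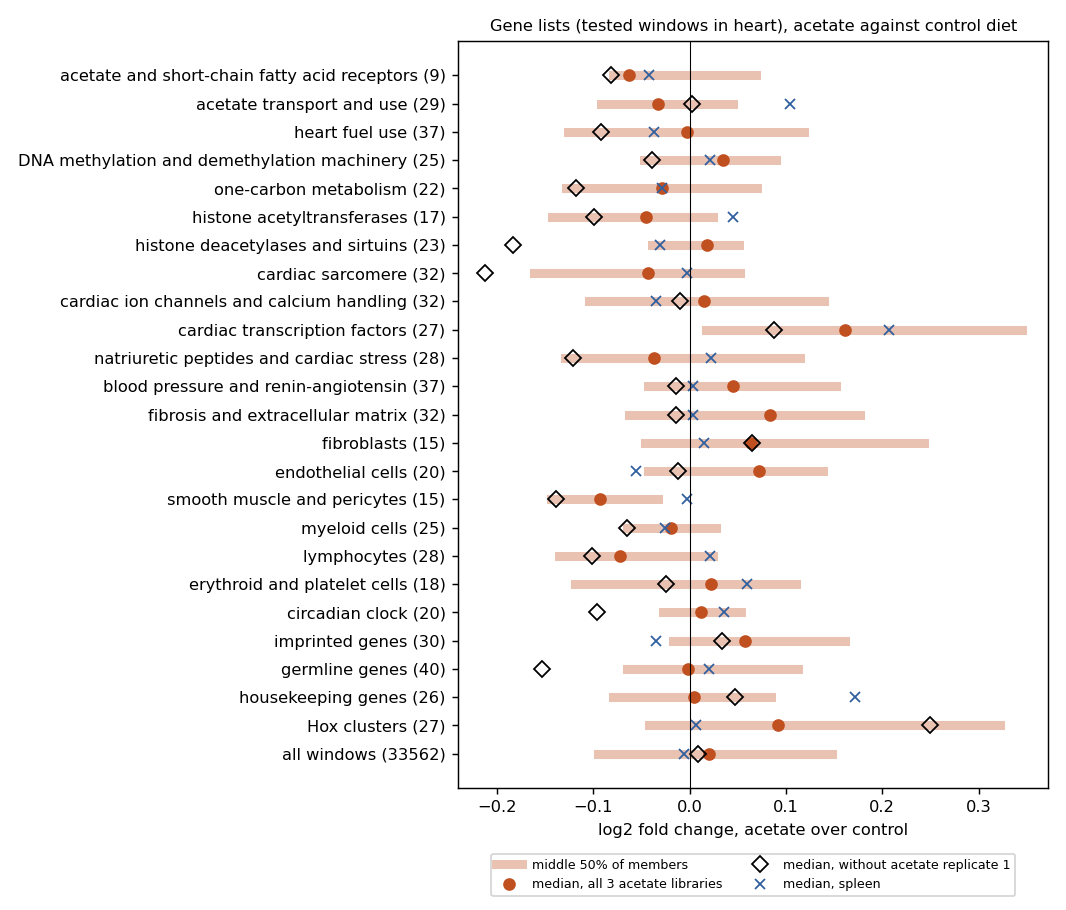
Median log2 fold change of acetate over control for 24 gene lists and for all windows, with the number of windows tested in heart. Filled circles are medians with all 3 acetate libraries, bars the middle 50% of members, open diamonds medians without acetate replicate 1 and crosses medians in spleen over the members tested there. The cardiac transcription factors have the highest median in heart (0.16), and without acetate replicate 1 the Hox clusters do (0.25).

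Leaving out acetate replicate 1 changed the count of calls. With 2 acetate and 4 control libraries, edgeR called 684 of 33907 windows (2.02%), of which 259 (0.764%) were higher and 425 (1.25%) lower on acetate. Higher on acetate were Lin7c (log2 fold change 1.24, adjusted p = 0.000569), Itgb8 (1.08, adjusted p = 0.00579) and Col3a1 (0.65, adjusted p = 0.00875), the collagen III chain of fibrous tissue. Col3a1 had 17.6, 28.8 and 34.3 CPM on acetate, against 16.3 to 24.6 CPM on control. High fibre heart, set against the same control libraries, was higher at Lin7c (1.07), Itgb8 (0.97) and Col3a1 (1.04) as well. The edgeR adjusted p-values there were 0.00733, 0.00629 and 0.00274, so these differences were not particular to acetate. Also higher was Rtn4, which encodes the endoplasmic reticulum protein Nogo, at 11.03, 30.02 and 35.2 CPM on acetate, against 18.3, 21.8, 18.4 and 24.1 CPM on control. In Rtn4 acetate replicate 1 was the lowest of the 7 libraries and acetate replicates 2 and 3 were the highest.

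The macrophage chitinase-like genes Chil3 and Chil4 showed the same split. Chil3 had 2.09, 26.4 and 25.2 CPM on acetate, against 9.28, 16.03, 16.4 and 16.998 CPM on control, so the acetate libraries lay on both sides of the control range. Its log2 fold change was 0.83 without acetate replicate 1 (adjusted p = 0.00159), and 0.41 (SE 0.34) with it. Chil4 had 7.75, 21.0 and 25.8 CPM on acetate, against 9.89, 14.2, 18.4 and 15.1 CPM on control. High fibre against control gave log2 fold changes of 1.19 for Chil3 and 1.16 for Chil4.

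Lower on acetate without that library were Miox, an oxygenase of inositol breakdown, with a log2 fold change of -0.72 (adjusted p = 0.000150), and Mvk, a kinase of cholesterol synthesis, with -0.61 (adjusted p = 0.00118). Mvk had 86.1, 45.4 and 40.2 CPM on acetate, against 71.5, 56.2, 68.9 and 63.6 CPM on control. Zbtb17, the transcription factor Miz-1, had 146, 76.0 and 70.2 CPM on acetate, against 122, 98.3, 117 and 95.7 CPM on control. Atg2a, a lipid transfer protein of autophagy, had 229, 114 and 119 CPM on acetate, against 180, 143, 163 and 161 CPM on control. In Mvk, Zbtb17 and Atg2a acetate replicate 1 was the highest of the 7 acetate and control libraries and the other 2 acetate libraries were the lowest of these 7. The same held for Hps4, Dnajb2 and Nosip. With all 3 acetate libraries the log2 fold changes of these 6 genes were between -0.22 and -0.09. High fibre heart against the same control libraries was lower too, at Miox (-0.71), Mvk (-0.76), Zbtb17 (-0.67) and Atg2a (-0.69). The edgeR adjusted p-values there were 0.00722, 0.00663, 0.00994 and 0.00789.

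Among the gene lists, one-carbon metabolism had 4 lower and 0 higher of 22 without acetate replicate 1 (18.2%, beside 1.25% of all windows lower), and its median was -0.12. These included Gnmt, glycine N-methyltransferase (log2 fold change -0.54, adjusted p = 0.00647), Cbs, cystathionine beta-synthase (-0.42, adjusted p = 0.0145), and Folr1 (-0.42, adjusted p = 0.0496). Gnmt and Cbs are named after their values were seen. Histone deacetylases and sirtuins had 3 lower and 0 higher of 23 (13.0%), among them Sirt2, a cytosolic deacetylase, at 83.5, 47.6 and 50.4 CPM on acetate, against 63.9, 62.8, 70.4 and 64.4 CPM on control. DNA methylation machinery had 2 lower of 25 (8.0%) and acetate transport and use 2 lower of 29 (6.90%). Cardiac transcription factors had 2 higher of 27, Irx2 and Isl1 (7.41%, beside 0.764% of all windows higher). Lower calls were commoner at high counts. In the second highest of 10 groups of windows by abundance (median 31.4 CPM), 104 of 3356 were called lower. The one-carbon list had a median of 25.9 CPM on acetate and the deacetylases and sirtuins 33.3 CPM. The counts in these lists also depended on the scaling. With library totals, 3 one-carbon, 4 deacetylase and sirtuin, 3 DNA methylation, 5 acetate transport and use and 11 cardiac transcription factor windows were higher and 0 lower. With cyclic loess the lower calls were 1 for one-carbon metabolism, 1 for acetate transport and use and 0 for the deacetylases and for DNA methylation, while 2 cardiac transcription factors were higher. With the enrichment covariate these 5 lists had 0 calls. The 28 fixed genes of acetate use, methylation and heart stress included 0 with a call.

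Direction followed abundance, and more so without acetate replicate 1. Windows were put in 10 groups of like size by abundance. In the groups with the lowest and the highest counts, the median log2 fold change was 0.14 and 0.00 with all libraries, and 0.34 and -0.14 without acetate replicate 1. Of the 425 lower calls 224 were in the group with the highest counts, and of the 259 higher calls 22, 73 and 44 were in the 3 groups with the lowest counts. Gm10800 was itself lower without acetate replicate 1 (log2 fold change -0.90, edgeR adjusted p = 0.0278). With cyclic loess scaling, which levels trends with abundance, 319 windows were called, 206 higher and 113 lower, of which 165 were among the 684. With an enrichment measure (imprinted and germline windows over housekeeping windows) as a covariate 97 were called. With library totals 7547 were higher and 8 lower. Without acetate replicate 3 too, which leaves 1 acetate library assumed to vary like the other groups, 2 windows were called. Without acetate replicate 2 too there were 159, and without control replicates 1, 2, 3 or 4 there were 132, 1209, 206 and 1254. With the number range as a term 9 were called, and 0 of these were among the 684.

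**Figure D5:**
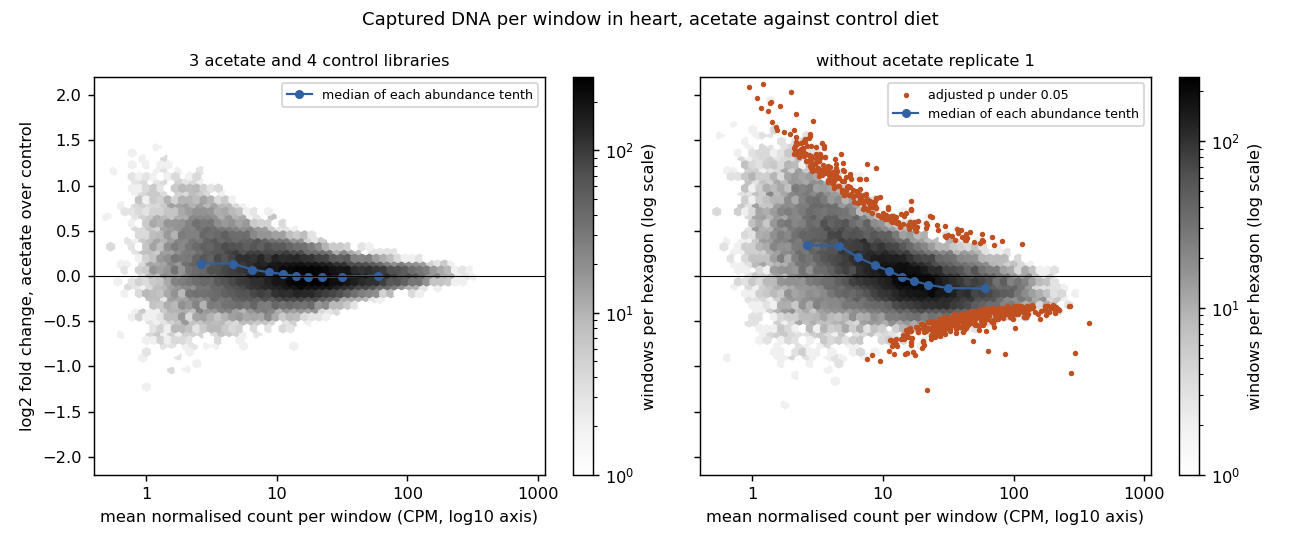
Log2 fold change of acetate over control against the mean normalised count of each window (CPM, log axis), with all libraries (left) and without acetate replicate 1 (right). Grey hexagons count windows on a log scale, lines join the medians of the 10 abundance groups, and coloured points on the right are the windows called; 20 and 23 windows lie outside the axes. On the right, higher calls sit at low counts and lower calls at high counts, and the medians are 0.34 at the left end and -0.14 at the right end.

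Windows were also grouped by the CpG number around their gene start. A RefSeq promoter sequence (250 bases before and 50 after the start) could be matched to 48.7% of all tested windows, so only protein-coding windows are described, 14999 of 18693 (80.2%). In the 2659 windows with 0 to 2 CpG the median log2 fold change was 0.09, at a median of 5.71 CPM on acetate and 5.60 CPM on control. In the 5024 windows with over 20 CpG it was 0.01, at a median of 19.3 CPM on acetate and 19.11 CPM on control. Without acetate replicate 1 these medians were 0.25 and -0.04. Classes with few CpG thus also had few reads, and the parts of CpG number and of abundance cannot be told apart.

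Receptor families with few reads followed suit. Of 1223 olfactory receptor windows 31 were higher and 3 lower on acetate at an unadjusted p under 0.05, with a median log2 fold change of 0.16. The 445 vomeronasal receptor windows had 15 higher and 1 lower and a median of 0.22. In either direction these were 2.78% of olfactory and 3.60% of vomeronasal windows, beside 2.50% of all windows (1.49% higher and 1.02% lower). Their median levels were 4.99 CPM on acetate and 4.67 CPM on control for olfactory windows, and 3.38 CPM on acetate and 3.09 CPM on control for vomeronasal windows. Without acetate replicate 1, 45 olfactory windows were called higher and 1 lower (3.75%), beside 2.02% of all windows (0.764% higher and 1.25% lower). In spleen fewer of these windows were tested, 408 olfactory and 100 vomeronasal, with medians of 0.01 and -0.00. The heart and spleen medians thus rest on different sets of windows. High fibre heart against the same control libraries had medians of 0.71 (olfactory) and 0.86 (vomeronasal), beside 0.02 over all windows. The shift was thus not particular to acetate.

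Spleen served as the nearest comparison, with 4 acetate and 4 control libraries. By edgeR 0 of 24871 spleen windows (0%) were called, and 872 (3.51%) had an unadjusted p below 0.05. DESeq2 called 1. The difference between the acetate effects in heart and spleen, tested as an interaction over all 23 libraries, gave 0 of 33982 windows (0%) with 1553 (4.57%) at an unadjusted p under 0.05. Without heart acetate replicate 1 it also gave 0, with 1734 (5.06%). Parp12, an interferon-induced ADP-ribosyltransferase, had among the smallest p-values of that test. In heart it had 15.8, 14.1 and 15.1 CPM on acetate, against 15.2, 16.5, 15.6 and 15.1 CPM on control. In spleen it had low levels of 0.957, 3.67, 1.35 and 1.45 CPM on acetate, against 0.150, 0.492, 0.662 and 0.149 CPM on control. Its log2 fold change was -0.06 in heart and 2.15 in spleen, with a difference of -2.13 that did not pass adjustment. Cybb, the catalytic subunit of the phagocyte NADPH oxidase, had 9.84, 19.7 and 21.6 CPM on acetate in heart, against 13.9, 14.9, 15.6 and 13.8 CPM on control. In spleen Cybb averaged 3.50 CPM on acetate and 5.79 CPM on control. The log2 fold changes were 0.30 in heart and -0.70 in spleen.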

How the data were processed

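Methylated fragments of left ventricle and spleen DNA were captured with a methyl-CpG binding protein kit (MethylMiner) and sequenced. The authors deposited raw read counts per 3 kb window at transcription start sites, 1 column per library, without normalisation. Tools listed in the submitters' processing notes are BWA 0.7.10, edgeR 3.16.5, bcl2fastq 2.19.1.403 and featureCounts 1.5.1, with build GRCm38; their roles and the handling of duplicate or multiply mapped reads are not given in the sources used here.

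Counts were scaled by TMM and tested with edgeR 4.0.16 in R 4.3.3 (quasi-likelihood, prior count 0.125, minimum count 10, Benjamini-Hochberg at 5%). The 11 heart libraries shared an estimate of the spread. Intervals are 95%, from the estimate and its SE. Alternatives were DESeq2 1.42.0, limma 3.58.1 voom, other scalings and filters, a surrogate variable (sva 3.50.0), a replicate block, an enrichment covariate and leaving out each library. The term for the number range, and for the comparison without acetate replicate 1 the enrichment covariate, RLE factors and leaving out the top 1% of windows, were chosen after seeing the data. The comparison without acetate replicate 1 was itself chosen with earlier results of these data known. The fit was tested on simulated data. Library totals limit the precision, and intervals cover counting error and the spread between libraries.

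Named are the 12 windows per direction with the smallest p, 28 fixed genes, the 2 members of each of 24 lists with the smallest p, 8 per direction among calls without acetate replicate 1, 3 per direction in the tissue difference and the 5 windows with most reads. Symbols of predicted genes and similar placeholders were passed over except in the last. The values of 1 named window are not reported here. Members and lists were chosen with earlier results of these data known.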

Additional observations from a re-analysis of the deposited data

Results flagged for a closer look

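Of 122 sets of 4 control values checked, at 116 named windows and for 6 measures of library composition, 5 had a library whose gap to the nearest other library was a large share of the group's range, past the 95% critical value of Dixon for 4 samples. Chance flags about 1 in 20 groups. At Itgb8, control replicate 1 was the lowest with 4.41 CPM, against 5.56 to 5.78 CPM in the other control libraries. At Chil3, control replicate 1 was again the lowest with 9.28 CPM, against 16.03 to 16.998 CPM. At Olfr742, control replicate 2 was the highest with 4.79 CPM, against 1.91 to 2.22 CPM. At Nono, an RNA-binding protein of nuclear paraspeckles, control replicate 4 was the highest with 12.4 CPM, against 7.91 to 8.67 CPM. At Hoxb3, control replicate 2 was the highest with 19.998 CPM, against 18.2 to 18.5 CPM.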

How the results depend on the processing

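The count of 0 windows on acetate was also 0 under RLE factors, library totals, cyclic loess, the top 1% of windows left out, no filter, a minimum count of 30, DESeq2, voom and the number range as a term. It was 1 with the 7 libraries only, with the replicate block and with the enrichment covariate, each time Gm22866, lower, and 15 with 1 surrogate variable (1 higher, 14 lower). Leaving out 1 library gave 0 to 684, with 684 without acetate replicate 1 and 1 without high fibre replicate 4. Without acetate replicate 1, the 684 windows became 319 with cyclic loess, 7555 with library totals, 431 with the 6 libraries only, 97 with the enrichment covariate and 9 with the number range as a term, and 605 with DESeq2, 509 with voom, 560 with the replicate block, 800 with RLE factors and 648 without the top 1%. Leaving out a further library gave 2 (acetate replicate 3) to 1254 (control replicate 4), with 159 without acetate replicate 2 and 132, 1209 and 206 without control replicates 1, 2 and 3. In spleen, DESeq2 and the replicate block each called 1 window and leaving out 1 library gave 0 to 1 (1 without control replicate 1). The tissue difference stayed at 0 in all alternatives run. The cause of these changes was not tested.

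Without acetate replicate 1, the difference in counts outside the top 5 windows turned to 0.091 M, in windows without reads to -0.968 percentage points and in the enrichment measure to -0.100. Over all left-out libraries the differences were -2.01 to -1.13 M for totals, -0.707 to 0.091 M outside the top 5 windows, -12.7 to -2.55 points for Gm10800, -13.2 to -2.48 points for the top 1%, -0.968 to 1.63 points for windows without reads and -0.100 to 0.198 for enrichment. Of 116 named windows, 32 changed sign with library totals, 13 without acetate replicate 3, 11 without acetate replicate 1 and 0 to 9 under each other alternative. With library totals, 11 of these had been over 1 SE from 0, among them Nppa, which turned to 0.035, Nppb to 0.070, Hps4 to 1.4e-05, Bhmt to 0.0020, Taf1 to 0.020, Hdac1 to 0.082, Mas1 to 0.0036, Acta2 to 0.050, Rgs5 to 0.0066 and Tcf7 to 0.064 (log2). Cyclic loess turned Chil3 to -0.28.

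Acetate and control replicates of the same number correlated in their deviations at 0.60, 0.28 and 0.02, so the numbers were not taken as pairs, and not every library correlated best with its own number.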

Other observations

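Gene families outside the lists were also counted. Of 218 immunoglobulin segment windows, 5 were higher and 0 lower at an unadjusted p under 0.05 (2.29%, beside 2.50% of all windows, 1.49% higher and 1.02% lower). Their median log2 fold change was 0.15 in heart, and it was -0.06 over the 39 such windows tested in spleen. For high fibre heart against the same control libraries their median was 0.84. Of 24 clustered protocadherin windows, adhesion molecules of neurons, 21 had a value above 0, with a median of 0.08 in heart, -0.13 without acetate replicate 1 and -0.07 in spleen. Over all windows 18327 of 33562 values were above 0 in heart. Of 51 ribosomal protein windows 0 were higher and 1 lower (1.96%), with a median of -0.07 in heart and 0.11 over the 34 tested in spleen. The median of the X chromosome was 0.08, and the medians of the autosomes were between -0.01 and 0.05.

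With the number range as a term and without acetate replicate 1, the 9 windows called all had a negative estimate for acetate. With that term the estimate rests on high fibre heart library 4, the only high fibre heart library in the upper range. These calls therefore do not show a difference between the acetate and control libraries themselves. They were 8 variable segments of the T cell receptor alpha locus and Zrsr2, a splicing factor. For acetate against control with all libraries and without the term, the 8 segments had log2 fold changes of 0.11 to 0.74 and Zrsr2 had -0.11. At Trav6n-6 the log2 fold change was -7.20 with the term, and 0.24 with all libraries and without it. Trav6n-6 also differed between high fibre heart library 4 and high fibre libraries 1 to 3, by 7.38.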
